A study of Homo sapiens with 6 samples.

Results

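A set of 10 genes was followed in H9 cells given the PRC2 inhibitor UNC1999 or its analog UNC2400. It holds DPPA genes, naive-state markers of human pluripotent cells and genes of, or linked to, the egg's maternal protein complex. The members were the rows of the deposited count table named DPPA2, DPPA3, DPPA4, DPPA5, TFCP2L1, SUSD2, NLRP2, NLRP7, KHDC3L or TLE6. All 10 were found among its 53712 gene names, and all 10 passed the low-count filter that kept 17596 genes. H9, a widely used human embryonic stem cell line, was kept here in RSeT, a medium for naive-type cells. Every library, of either group, came from cells that had also been given 2 other agents, added 24 h after passage: DZNep at 10 nM, which blocks the hydrolase of S-adenosylhomocysteine, and trichostatin A (TSA) at 5 nM, which blocks histone deacetylases. The control group (3 libraries) received 2.5 µM UNC2400 and the treated group (3 libraries) 2.5 µM UNC1999, an inhibitor of EZH2 and EZH1, both for 48 h. UNC2400 is the N-methylated analog of UNC1999 with low activity. There was no arm without either compound, and 1 line was used. Whether replicates are separate cultures is not stated in the labels, and p-values then reflect only the spread among these libraries, which may be technical.

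DPPA2 and DPPA4 are SAP-domain proteins that bind chromatin as a pair and are restricted to pluripotent cells and the germ line. DPPA3 (STELLA) is a maternal factor that limits DNA methylation by holding UHRF1 away from chromatin, and DPPA5 is a small KH-domain RNA-binding protein. TFCP2L1 is a transcription factor of the naive network, and SUSD2 is a surface protein used to sort naive human cells. NLRP2, NLRP7, KHDC3L and TLE6 are oocyte proteins of, or linked to, the subcortical maternal complex, and maternal variants of several of them disturb imprinting or early development. NLRP2, NLRP7 and KHDC3L are also transcribed in naive-type stem cells.

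Between UNC2400 and UNC1999, 6 of the 10 genes fell, 2 rose and 2 did not pass the test. With offsets for gene length and GC content, 7 fell, 1 rose and 2 did not pass. KHDC3L, NLRP2 and NLRP7 fell most, by 45.6%, 44.7% and 42.5% in the fit, while SUSD2, DPPA5 and DPPA4 fell by 24.5%, 17.8% and 14.9%. DPPA3 and TFCP2L1 rose by 32.1% and 22.8%. The calls come from edgeR's quasi-likelihood test over all genes, with Benjamini-Hochberg adjustment and a threshold of 0.05. Of all tested genes, 52.7% passed this test, 26.8% as higher and 25.9% as lower in UNC1999, so a share of 8 in 10 is to be read against a background in which calls were common. The 10 genes had a median log2 fold change of -0.33, against 0.02 over all tested genes, and a median absolute log2 fold change of 0.39, against 0.28. The genes were chosen with earlier results of these data known, so these medians are not independent of that choice. RNA was measured in bulk, so fewer cells with a transcript and less of it per cell cannot be told apart.

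**Figure D1:**
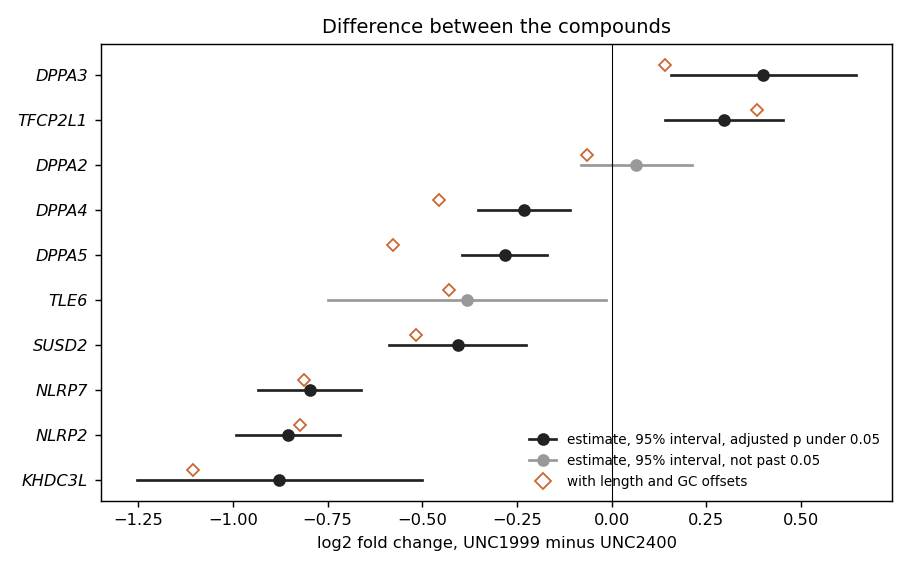
Log2 fold change (UNC1999 minus UNC2400, x axis) of each of the 10 genes, with its 95% interval. Black marks genes past an adjusted p of 0.05, grey those that were not, and open diamonds the same fit with offsets for gene length and GC content. KHDC3L, NLRP2 and NLRP7 lie farthest to the left, and the diamond of DPPA3 lies nearer 0 than its estimate.

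Total counts ran from 29699441 to 42345448 per library. EZH2, the main target of UNC1999, was at 128 ± 2.46 CPM in UNC2400 and 102 ± 5.46 CPM in UNC1999 (SD, n = 3 each). The compound acts on the enzyme and not on its gene, so this level does not check the labels. The cells were labelled as naive. Of 28 further naive-state markers, 17 reached 1 CPM in UNC2400. KLF17, a defining naive factor, had 16 counts over the UNC2400 and 41 over the UNC1999 libraries, and ESRRB 22 and 20. Of 22 primed-state markers, 21 were in the table and all of these reached 1 CPM in UNC2400, with PTPRZ1 at 373 ± 20.4 CPM (SD, n = 3). Transcripts linked to both states were present in both groups.

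The sequences before the starts listed in the RefSeq promoter table are given for 5 genes to show where neighbours lie and how they differ. NLRP2 and NLRP7 lie side by side on chromosome 19 and fell together, DPPA2 and DPPA4 lie side by side on chromosome 3 and did not, and DPPA3 was the DPPA gene that passed as higher, a call that ended with offsets for length and GC and without 1 library. Each run is the 250 bases before that start (build GRCh38.p14, not the hg19 named for the counts), 5′ to 3′ on the gene's strand, with CpG dinucleotides in capitals. For NLRP7 and DPPA4, and for TLE6, whose run is not shown, the listed start is not the outermost start of the gene in RefSeq, so their windows and CpG counts belong to an inner start. NLRP2 has a second entry in that table, which was not used.
NLRP7, chr19:54947531-54947780, minus strand: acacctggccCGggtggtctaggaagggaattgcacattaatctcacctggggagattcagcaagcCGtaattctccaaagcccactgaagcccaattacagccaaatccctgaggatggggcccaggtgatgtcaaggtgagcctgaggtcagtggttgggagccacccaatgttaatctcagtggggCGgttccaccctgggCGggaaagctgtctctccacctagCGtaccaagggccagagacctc
NLRP2, chr19:54965034-54965283, plus strand: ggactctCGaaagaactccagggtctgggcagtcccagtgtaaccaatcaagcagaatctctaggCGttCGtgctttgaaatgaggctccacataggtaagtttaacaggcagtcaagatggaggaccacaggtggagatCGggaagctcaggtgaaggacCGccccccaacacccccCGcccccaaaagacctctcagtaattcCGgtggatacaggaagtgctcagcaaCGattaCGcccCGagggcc
DPPA2, chr3:109316518-109316767, minus strand: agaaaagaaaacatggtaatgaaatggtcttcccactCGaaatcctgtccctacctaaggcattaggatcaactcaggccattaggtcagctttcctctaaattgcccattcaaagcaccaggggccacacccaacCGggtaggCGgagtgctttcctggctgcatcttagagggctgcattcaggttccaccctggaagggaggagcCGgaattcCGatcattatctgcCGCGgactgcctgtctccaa
DPPA4, chr3:109337547-109337796, minus strand: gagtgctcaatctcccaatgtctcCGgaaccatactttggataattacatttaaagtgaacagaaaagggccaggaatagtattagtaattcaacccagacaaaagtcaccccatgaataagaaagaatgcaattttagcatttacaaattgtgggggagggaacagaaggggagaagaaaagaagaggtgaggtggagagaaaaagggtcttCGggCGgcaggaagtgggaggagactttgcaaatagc
DPPA3, chr12:7711183-7711432, plus strand: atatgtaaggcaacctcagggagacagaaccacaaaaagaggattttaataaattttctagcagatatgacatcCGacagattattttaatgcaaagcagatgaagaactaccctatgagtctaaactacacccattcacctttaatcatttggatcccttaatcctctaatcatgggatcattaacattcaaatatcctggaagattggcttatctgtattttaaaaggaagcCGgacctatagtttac

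CpG sites are the targets of DNA methylation, and these promoters hold few of them. In the same window, DPPA3 had 2 CpG, DPPA4 3, NLRP7 5, DPPA2 7 and NLRP2 10, where 11158 promoters of tested genes had a median of 20 (quartiles 13 and 28). Fewer CpG than in DPPA3 were found in 2.86% of those promoters, and fewer than in NLRP2 in 18.3%. KHDC3L and DPPA5 had 15 and 19, and TLE6 and TFCP2L1 28 and 32, so low CpG content was not shared by all members. SUSD2 had no entry. The POU octamer ATGCAAAT was in 0 of the 9 windows, searched on both strands (1.28% of the tested promoters hold it). CCAAT was in 6 of 9 (34.4% of tested promoters) and the GC box GGGCGG in 7 of 9 (65.9%). A match describes letters only, and the genes were chosen by name with no regard to these windows.

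Levels differed widely among the members. Per kb of joined exon length (GENCODE release 29), DPPA4 was at 239.9 ± 4.36 CPM per kb in UNC2400 and DPPA5 at 207 ± 9.53, above 99.3% and 99.1% of tested genes with a known length. NLRP2 and NLRP7 followed at 52.0 ± 1.04 and 41.0 ± 0.723 CPM per kb, then DPPA2 at 13.4 ± 0.424 and DPPA3 at 6.24 ± 0.872. KHDC3L, TFCP2L1 and SUSD2 were at 2.70 ± 0.0964, 2.43 ± 0.176 and 2.33 ± 0.0655 CPM per kb, and TLE6 was lowest at 0.775 ± 0.136 (SD, n = 3 each). In UNC2400, KHDC3L and TFCP2L1 overlapped between libraries, as did TFCP2L1 and SUSD2, while the other neighbours in this order did not. In UNC1999 the order was the same except that KHDC3L, at 1.47 ± 0.213 CPM per kb, lay below TFCP2L1 (2.98 ± 0.225) and SUSD2 (1.76 ± 0.0195), and did not overlap with either (SD, n = 3 each). NLRP2 and NLRP7 overlapped between UNC1999 libraries, at 25.9 to 32.1 and 21.7 to 26.5 CPM per kb. Joined exons can be longer than the transcript in use, so the order is approximate.

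**Figure D2:**
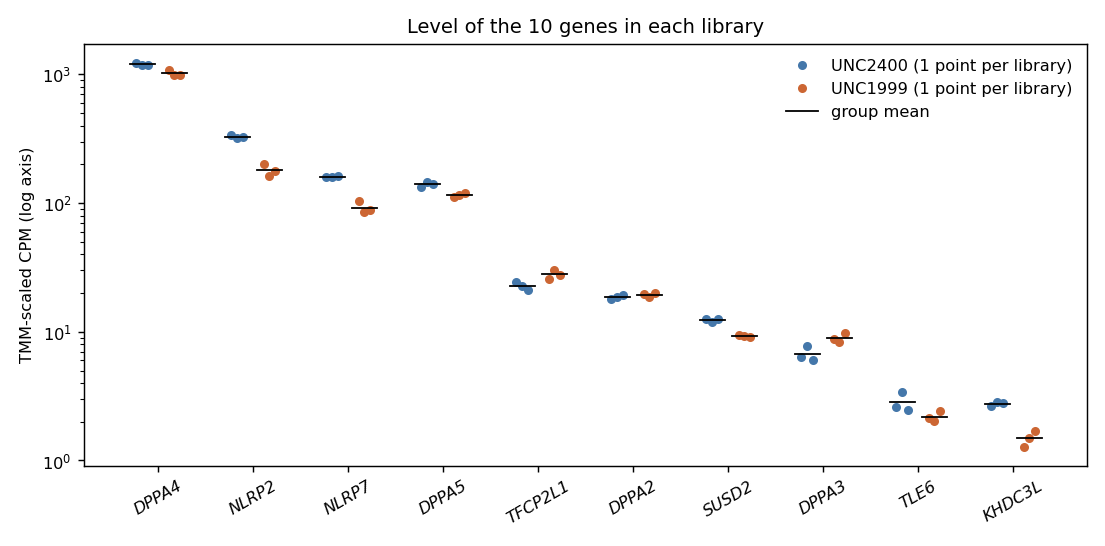
Level of each gene in each library, as TMM-scaled CPM on a log axis, with 1 point per library and a line at the group mean (n = 3 per group). Every UNC1999 point lies below every UNC2400 point for 7 genes and above for DPPA3 and TFCP2L1, while DPPA2 overlaps. CPM is not scaled for length.

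DPPA4, the more abundant partner of the SAP-domain pair, was at 1224, 1188 and 1184 CPM in UNC2400 replicates 1 to 3 and at 1079, 993 and 989.7 CPM in UNC1999 replicates 1 to 3. All UNC1999 libraries lay below all UNC2400 libraries, with UNC1999 replicate 1 nearest to them. The log2 fold change was -0.23 ± 0.06 (SE; edgeR adjusted p = 0.00266). With offsets for length and GC content it was -0.46. DPPA2, its partner, was at 18.0, 18.5 and 19.2 CPM in UNC2400 and at 19.6, 18.7 and 20.0 CPM in UNC1999, and the groups overlapped. Its log2 fold change was 0.07 with a 95% interval of -0.08 to 0.21 (edgeR adjusted p = 0.455), and -0.06 with the offsets. The sign of this value thus depended on the offsets, and neither value passed the test.

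Since both genes were counted in the same libraries, their ratio does not depend on library scaling. The log2 ratio of DPPA2 to DPPA4 counts was -6.08, -6.0 and -5.95 in UNC2400 and -5.78, -5.73 and -5.63 in UNC1999. It was higher in all UNC1999 libraries, by 0.30 on the log2 scale (exact two-sided permutation p = 0.1, the smallest that 3 against 3 libraries allow; 0.15 adjusted over the 3 gene pairs compared). The ratio thus differed between the groups by more than its spread between libraries. It did not pass 0.05, which this test cannot reach with 3 against 3 libraries. Groups without overlap were common here, at 60.6% of all tested genes. How often the ratios of other gene pairs separate the groups was not tested.

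DPPA3 was low, at 6.32, 7.81 and 6.06 CPM in UNC2400 (182, 326 and 183 counts) and at 8.76, 8.27 and 9.84 CPM in UNC1999 (302, 291 and 334 counts). All UNC1999 libraries lay above all UNC2400 libraries, but UNC2400 replicate 2 and UNC1999 replicate 2 were close. The log2 fold change was 0.40 ± 0.12 (SE), with a 95% interval of 0.16 to 0.65 (edgeR adjusted p = 0.00799). This call ended without UNC1999 replicate 3 (log2 fold change 0.31, adjusted p = 0.0588) and with offsets for length and GC (0.14, adjusted p = 0.301). DPPA3 has a processed pseudogene, DPPA3P2, whose reads may not be separable from its own. DPPA3P2 had 15, 19 and 15 counts in UNC2400 and 32, 36 and 39 in UNC1999, which was 6.62% and 10.3% of the counts of both together. With these reads added, the log2 fold change of DPPA3 was 0.46 (adjusted p = 0.00226).

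DPPA5 was at 134, 146 and 141 CPM in UNC2400 and at 111, 115 and 121 CPM in UNC1999. The groups did not overlap, and the log2 fold change was -0.28 ± 0.05 (SE; edgeR adjusted p = 0.000276). With the offsets it was -0.58. DPPA5 is the shortest member, with 679 bases of exon. With the offsets 8 of the 10 estimates moved down, among them KHDC3L to -1.11 and SUSD2 to -0.52, while TFCP2L1 moved up to 0.38 and NLRP2 to -0.82.

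Among the naive markers proper, the transcription factor gene TFCP2L1 was at 24.4, 22.8 and 21.1 CPM in UNC2400 and at 25.9, 30.1 and 27.8 CPM in UNC1999. All UNC1999 libraries were higher, with UNC1999 replicate 1 closest to the control range, and the log2 fold change was 0.30 ± 0.07 (SE; edgeR adjusted p = 0.00271). The surface marker gene SUSD2 was at 12.5, 11.9 and 12.5 CPM in UNC2400 and at 9.37, 9.27 and 9.17 CPM in UNC1999. Its UNC1999 libraries were tightly grouped below the control range, and the log2 fold change was -0.41 ± 0.09 (SE; edgeR adjusted p = 0.000735). These 2 naive markers went opposite ways between the same libraries.

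NLRP2 was at 335, 323 and 326 CPM in UNC2400 and at 202, 164 and 178 CPM in UNC1999. NLRP7 was at 158, 159 and 164 CPM in UNC2400 and at 104, 84.9 and 88.2 CPM in UNC1999. In both genes UNC1999 replicate 1 was the least reduced, and no library overlapped between groups. The log2 fold changes were -0.85 ± 0.07 for NLRP2 (SE; edgeR adjusted p = 2.90e-08) and -0.80 ± 0.06 for NLRP7 (SE; adjusted p = 4.90e-08). NLRP2 had the 767th and NLRP7 the 907th most negative log2 fold change of the 17596 tested genes.

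The 2 NLRP genes lie on opposite strands and their spans overlap in GENCODE release 29. Their annotated exons share 0 bases there. Whether the authors counted by strand is not given in the sources used here, and the genes are close paralogs, so a share of reads may not be separable. The log2 ratio of NLRP2 to NLRP7 counts was 1.08, 1.02 and 1.0 in UNC2400 and 0.97, 0.95 and 1.01 in UNC1999. The ratio differed by -0.06 on the log2 scale, and the groups overlapped (exact two-sided permutation p = 0.2; 0.2 adjusted over the 3 pairs). A difference between the falls of the paralogs was not detected.

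KHDC3L, a KH-domain gene of the maternal complex, was near the bottom of the range with 76, 118 and 84 counts in UNC2400 and 44, 53 and 58 in UNC1999. That is 2.64, 2.83 and 2.78 CPM against 1.28, 1.51 and 1.71 CPM, with no overlap. The log2 fold change was -0.88 ± 0.18 (SE), with a 95% interval of -1.26 to -0.50 (edgeR adjusted p = 0.000559). TLE6, a Groucho-type protein of the same complex, had 75, 142 and 75 counts in UNC2400 and 74, 71 and 82 in UNC1999. Its levels were 2.60, 3.40 and 2.49 CPM against 2.15, 2.02 and 2.42 CPM, and UNC2400 replicate 2 stood above the rest. The groups did not overlap, and the log2 fold change was -0.38, with a 95% interval of -0.75 to -0.02 (edgeR adjusted p = 0.0747). Without UNC2400 replicate 2 it was -0.22 (adjusted p = 0.398), and with the length and GC offsets TLE6 passed (-0.43, adjusted p = 0.042).

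Both subunit genes were also compared within libraries, again without a background of other gene pairs. The log2 ratio of KHDC3L to TLE6 counts was 0.02, -0.27 and 0.16 in UNC2400 and -0.74, -0.42 and -0.50 in UNC1999. It was lower in all UNC1999 libraries, by 0.52 on the log2 scale (a difference of -0.52; exact two-sided permutation p = 0.1, the smallest possible; 0.15 adjusted over the 3 pairs).

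**Figure D3:**
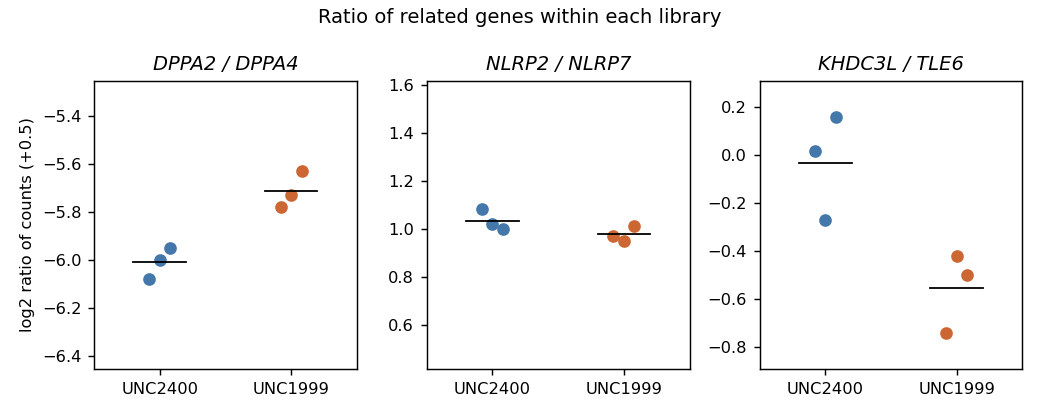
Log2 ratio of the counts of related genes within each library (y axis; 0.5 was added to each count), for UNC2400 and UNC1999, with 1 point per library and a line at the mean (n = 3 per group). The 3 panels span the same length on the y axis. The groups are apart for DPPA2 to DPPA4 and for KHDC3L to TLE6 and overlap for NLRP2 to NLRP7.

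All UNC1999 values lay outside the UNC2400 range for 9 of the 10 genes, 7 of them lower, where this held for 60.6% of all tested genes, for 29.7% as lower and for 30.9% as higher. The authors' deposited table of log2 fold changes has the same signs for all 10 genes, with 2 higher and 6 lower at an adjusted p under 0.05. Of the 20901 genes in the authors' deposited table, 44.0% passed that threshold, 21.3% as higher and 22.7% as lower. There, in the authors' deposited table, NLRP2 has a log2 fold change of -0.88, KHDC3L -0.89, NLRP7 -0.82, DPPA3 0.38 (adjusted p = 0.0112) and TLE6 -0.40 (adjusted p = 0.0806).

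**Figure D4:**
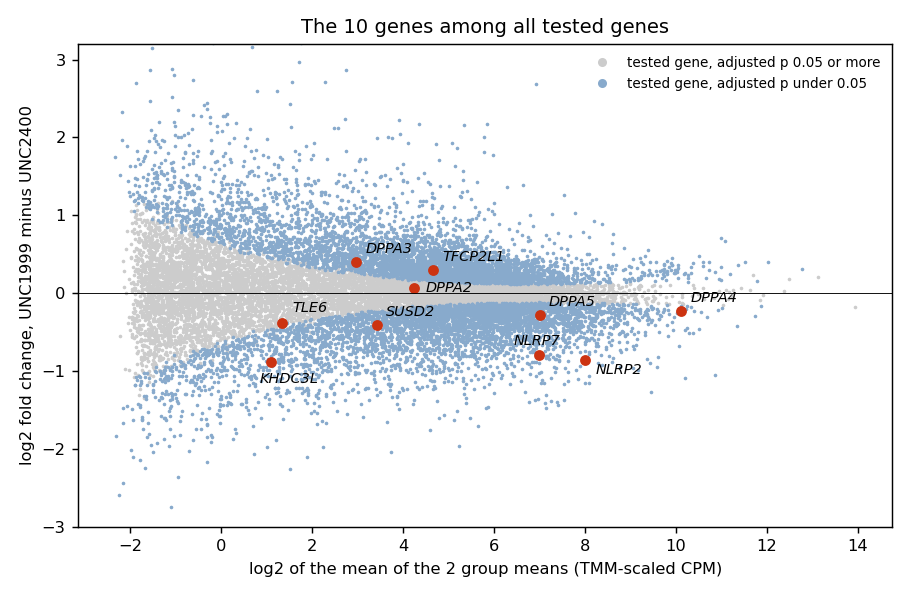
Log2 fold change (y axis) against the log2 of the mean level (x axis) for all 17596 tested genes, with the 10 genes in red; 12 genes lie outside the plotted range. NLRP2 and NLRP7 lie at -0.85 and -0.80, DPPA4 is among the most abundant genes, and KHDC3L and TLE6 are the least abundant of the 10.

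Among other genes of the naive state, rises and falls were both seen. Of 28 listed naive-state markers outside the 10 genes, 21 were tested: 9 passed as higher and 3 as lower, and 9 were not past the threshold (median log2 fold change 0.28). Counts in this and the following lists are to be read against all tested genes. Of those, 26.8% passed as higher and 25.9% as lower. DNMT3L, a cofactor of de novo DNA methylation, went from 4.17 ± 0.671 to 13.8 ± 1.12 CPM (SD, n = 3 each). Its log2 fold change was 1.73 ± 0.12 (SE; edgeR adjusted p = 8.89e-09). KLF4, a reprogramming factor, rose by 0.62 ± 0.06 and IL6ST, the shared receptor subunit for LIF-type cytokines, by 0.68 ± 0.09 (log2, SE). ALPPL2, an alkaline phosphatase with near-identical copies and therefore uncertain, rose by 1.44 ± 0.18 (log2, SE). The 3 that fell were the growth factor gene FGF4, by 0.65 ± 0.10, the proton pump subunit gene ATP6V0A4, by 0.54 ± 0.14, and GDF3, by 0.32 ± 0.08 (log2, SE). Markers low in UNC2400 pass the filter more readily where UNC1999 is higher, so the 7 untested markers, KLF17 among them, are not represented in these counts.

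Primed-state markers went both ways. Of 21 tested, 9 rose and 7 fell (median log2 fold change 0.09). The neurofilament gene NEFL, the zinc finger genes SALL1 and ZIC2 and the intermediate filament gene VIM rose by 1.39 ± 0.06, 1.71 ± 0.09, 1.55 ± 0.11 and 1.0 ± 0.08 (log2, SE), while PTPRZ1, a receptor-type phosphatase gene, fell by 1.16 ± 0.09 (log2, SE). Of 7 core pluripotency factors, 3 fell and 0 rose (median -0.14): POU5F1 and UTF1 fell by 0.44 ± 0.06 and 0.42 ± 0.06, and NANOG by 0.14 ± 0.05 (log2, SE).

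**Figure D5:**
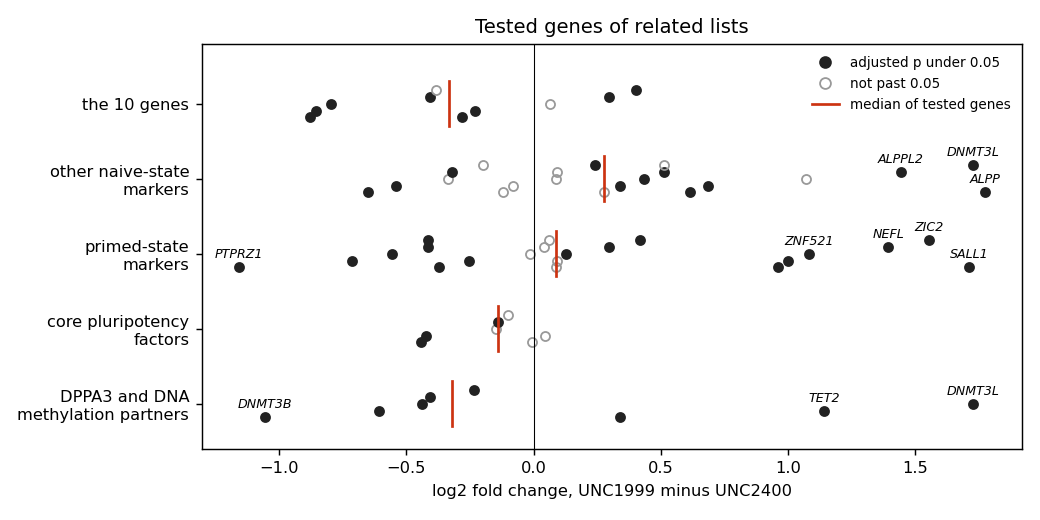
Log2 fold change (x axis) of the tested genes of 4 related lists and of the 10 genes, with filled points past an adjusted p of 0.05 and a red line at each median. The 10 genes have their median at -0.33, other naive-state markers at 0.28 and primed-state markers at 0.09; DNMT3L is in 2 lists, and the outermost genes are named. The 10 genes and the lists were chosen with earlier results of these data known.

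Genes that act with or beside the members were mixed as well. The listed genes linked to DNA methylation, UHRF1 among them, all passed the test, as did 52.7% of all tested genes. Of these 8, 5 fell and 3 rose (median -0.32). The 3 that rose were DNMT3L, by 1.73 ± 0.12, TET2, by 1.14 ± 0.16, and TET3, by 0.34 ± 0.07 (log2, SE). UHRF1, which DPPA3 binds, went from 105 ± 4.54 to 77.4 ± 4.56 CPM (SD, n = 3 each). Its log2 fold change was -0.44 ± 0.06 (SE; edgeR adjusted p = 5.13e-06). The maintenance enzyme gene DNMT1 and the de novo enzyme gene DNMT3B fell by 0.61 ± 0.07 and 1.06 ± 0.09 (log2, SE). Of 8 further maternal complex and KH-domain genes, 3 were tested, and KHDC1 rose by 0.38 ± 0.12 (log2, SE) while ZBED3 and NLRP14 did not pass. NLRP5, OOEP, PADI6, KHDC1L and KPNA7 had between 0 and 27 counts over all 6 libraries, at or near the limit of detection.

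Relatives of the members were mixed. Of 13 other NLR-type genes, 6 were tested, 1 rose and 0 fell: NLRX1 had a log2 fold change of 0.27 ± 0.07 (SE), and NLRP12, at 27.3 ± 1.46 CPM in UNC2400 (SD, n = 3), one of -0.13 with a 95% interval of -0.26 to 0.01. Of 5 other TLE corepressor genes, TLE3 rose by 0.32 ± 0.05 and TLE2 fell by 0.37 ± 0.10 (log2, SE). In the family of TFCP2L1, 1 of 5 genes rose and 1 fell: GRHL3 rose by 0.67 ± 0.19 and GRHL2 fell by 0.24 ± 0.09 (log2, SE), while TFCP2 and UBP1 had log2 fold changes of -0.04 and -0.03.

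Markers of other cell types were read beside these values. The summed level of 12 fibroblast or feeder genes was 850.1 to 988 CPM in UNC2400 and 451 to 494 CPM in UNC1999, with 7 of 9 tested genes lower and 2 higher, and FN1, the fibronectin gene, lower by 1.37 on the log2 scale (log2 fold change -1.37 ± 0.08, SE). The fibroblast genes COL3A1, DCN and LUM had 27, 5 and 1 counts over all libraries. The summed level of 16 trophoblast genes was 115 to 121 CPM in UNC2400 and 138 to 148 CPM in UNC1999, with 3 of 6 tested genes higher and 0 lower, and KRT18, a keratin gene, was at 113 ± 2.86 and 133 ± 4.87 CPM of these sums (SD, n = 3 each). The other 2 that rose were lower in level: CCR7, a chemokine receptor gene, had 32 counts over the UNC2400 and 357 over the UNC1999 libraries (log2 fold change 3.44 ± 0.45, SE), and MSX2, a homeobox gene, 24 and 134 (2.41 ± 0.32, SE). CGB5 and VGLL1 had 0 counts, and CDX2 had 4 over all libraries. Of the amnion genes 5 were tested, with 2 higher and 2 lower, and the sum was 52.6 to 55.2 CPM against 58.1 to 59.5 CPM. BMP4 rose by 0.82 ± 0.09 and MUC16 fell by 1.60 ± 0.19 (log2, SE). Of the hypoblast and endoderm genes 6 were tested, with 2 higher and 3 lower, and the sum was 217 to 249 CPM against 183 to 196 CPM. The sum is mostly LAMA1, COL4A1 and PDGFRA, the 3 that fell. CER1, a secreted Nodal antagonist, rose from 3.48 ± 0.299 to 54.7 ± 17.9 CPM (SD, n = 3 each), by 3.97 ± 0.21 on the log2 scale (SE), and GATA4, an endoderm transcription factor gene, rose by 1.37 ± 0.36 (log2, SE). GATA6, which was not tested, had 3 counts over the UNC2400 and 26 over the UNC1999 libraries. CCR7, MSX2, GATA4 and the fibroblast gene PDGFRB were too low in UNC2400 to pass the low-count filter without UNC1999 libraries. Being higher in UNC1999 is thus part of why these genes were tested, and their place in the counts of higher genes carries no weight. The part of any of these in the members' differences was not tested.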

How the data were processed

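Poly(A)-selected RNA-seq libraries, made with a kit that marks strand from 200 ng of RNA each, were grouped by the sample titles. The authors deposited whole-number counts per gene name, marked as having duplicates removed. Per the submitters' processing notes, build hg19 and the tools TopHat2 2.0.13, Trim Galore 0.4.0, Subread 1.5.0 and featureCounts were involved, in unstated roles. Strand setting and handling of multi-mapping reads are not stated there. The authors' deposited log2 values are normalized and batch-corrected per the file names, and served only for reference. Per the file headers, the authors' table of comparisons gives a log2 fold change, a p-value and test scores, with columns named as in limma.

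Counts were tested with edgeR 4.0.16 in R 4.3.3 (TMM factors, default filter on group, quasi-likelihood F test, group only). The fit was first tested on simulated data. Alternatives used DESeq2 1.42.0, limma-voom (limma 3.58.1), other factors and filters, a replicate block, offsets fitted on exon length, span and GC (known for 84.3% of tested genes), and each library left out. CPM values are TMM-scaled. Depth allows a count of 0 to hide up to 3 counts; intervals are for fitted folds. Log2 ratios of gene pairs were compared by exact permutation tests. Genes named were the members, EZH2, EZH1, up to 4 genes per list with the smallest p, chromosomal neighbours and the gene nearest in pattern to each member, with further low-count and list genes chosen after their values were seen. The members and lists were chosen with earlier results of these data known.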

Additional observations from a re-analysis of the deposited data

How the results depend on the processing

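The number of the 10 genes past the threshold was 8 in the reported fit, stayed at 8 under each alternative that kept all libraries, and ranged from 7 to 8 when a library was left out. The number of all genes past it was 9268 and ranged from 7560 with the length and GC offsets to 10076 without UNC1999 replicate 1. NLRP2, NLRP7, KHDC3L, SUSD2, DPPA4, DPPA5 and TFCP2L1 kept their direction and their call under all 16 alternatives run for each. DPPA3 lost its call with the length and GC offsets (0.14), with these and the replicate block (0.14, adjusted p = 0.31, edgeR) and without UNC1999 replicate 3 (0.31). DPPA2 turned from 0.065 to -0.064 with the offsets and to -0.066 with the offsets and the replicate block. TLE6 passed only with the offsets, alone or with the replicate block (-0.42, adjusted p = 0.0469, edgeR). The cause was not tested; the fit with offsets holds 14835 genes. Adding the DPPA3P2 reads was chosen after seeing the data.

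The 3 ratios kept their sign in all 8 alternatives: 0.26 to 0.33 for DPPA2 to DPPA4, -0.08 to -0.03 for NLRP2 to NLRP7 and -0.64 to -0.43 for KHDC3L to TLE6. For KHDC3L to TLE6, the exact permutation p was 0.2 without any 1 UNC1999 library and 0.1 without any 1 UNC2400 library. For DPPA2 to DPPA4 it stayed at 0.1 without any 1 library. With the replicate block, an exact sign-flip test gave p = 0.25 for both. Deviations of same-numbered libraries from their group means correlated at 0.0237, 0.0839 and 0.124 over genes. Those of differently numbered libraries correlated at -0.136 to 0.0618. Both replicate 2 libraries detected more genes (29385 in UNC2400 and 29527 in UNC1999) than the other libraries (26413 to 26918). Whether the replicate number marks a shared batch was not tested. With the replicate block, 9562 genes and 8 of the 10 passed, NLRP2 at -0.86 and DPPA3 at 0.405. The block changed no call of the 10 genes in the fit without offsets. Scaling factors moved the median of all genes by less than 0.1. Depth limits TLE6 and KHDC3L most, with 44 to 142 counts per library.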

Other observations

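Several members have expressed neighbours, and RefSeq order was used to find the nearest tested protein-coding gene on each side. DPPA3 lies between GDF3, a TGF-beta family gene, and NANOG. GDF3 went from 31.8 ± 2.75 to 25.5 ± 3.14 CPM and NANOG from 113 ± 3.45 to 103 ± 2.16 CPM (SD, n = 3 each), log2 fold changes of -0.32 ± 0.08 and -0.14 ± 0.05 (SE; edgeR adjusted p = 0.00409 and 0.0233), while DPPA3 between them was at 0.40 (adjusted p = 0.00799; 0.14 and 0.301 with offsets for length and GC, and 0.31 and 0.0588 without UNC1999 replicate 3). On chromosome 6, KHDC1 rose beside DPPA5 and KHDC3L, which fell. CABIN1, a neighbour of SUSD2, fell by 1.06 ± 0.09 (log2, SE), more than SUSD2 itself (-0.41). GLI2 and CLASP1, the neighbours of TFCP2L1, fell by 0.41 ± 0.07 and 0.46 ± 0.06 (log2, SE), while TFCP2L1 rose. DZIP3, beside DPPA2, fell by 0.72 ± 0.08 (log2, SE), and PVRL3, beside DPPA4, lay at -0.14 (95% interval -0.27 to -0.01; edgeR adjusted p = 0.0677). The outer neighbours of the NLRP pair, NCR1 and GP6, were at 0.623 ± 0.0522 and 0.457 ± 0.15 CPM in UNC2400 (SD, n = 3 each) and did not pass. DDX43, beyond KHDC3L, and ZNF77, before TLE6, did not pass, while TLE2, the neighbour of TLE6, fell by 0.37 ± 0.10 (log2, SE). GGT5, the other neighbour of SUSD2, did not pass.

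The gene most like each member across the 6 libraries was the one with the smallest root mean square difference of centred log2 CPM. It was IFT122 for NLRP2 (0.0232), AGTPBP1 for NLRP7 (0.0201), SETD3 for DPPA4 (0.0128), SPSB4 for DPPA5 (0.0204), PSMC1 for DPPA2 (0.0114), C10orf114 for DPPA3 (0.0383), DNAJC27 for TFCP2L1 (0.0184), STX4 for SUSD2 (0.0192), COL8A2 for KHDC3L (0.0661) and RP11-1148L6.5 for TLE6 (0.0489). With 2 groups, many genes share such a pattern, and the likeness is a description only.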
